A study of Mus musculus with 48 samples.

Results

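The autosomal genes of the mouse liver were compared between male and female RNA samples that carried the same number in their titles. The liver was covered by 12 of the 48 arrays of the series, which came from 6 of the 24 RNA samples, 3 from male and 3 from female liver, with 2 arrays per RNA sample. A probe set, the group of short probes that reads 1 transcript on an Affymetrix array, was tested where at least 3 of the 6 liver samples had it above the 40th percentile of all probe sets on the array. This left 13792 probe sets, of which 12272 had 1 gene symbol on an autosome, and these stood for 8302 autosomal genes. Where several probe sets read a gene, the brightest stood for it.

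The series measured mouse liver, kidney and hypothalamus of both sexes, testis and ovary, and asked which transcripts differ between the sexes. According to the sample labels, the RNA was bought and pooled from 10 animals per RNA sample. The 2 groups are male liver and female liver, and no treatment, transgene, strain or age is given for either in the sources used here. Whether the 3 samples of a sex are separate pools is not stated in the labels, and the p-values then reflect only how these samples vary, which may be technical variation. The labels also conflict on the kind of RNA, with polyA-selected RNA for liver in the description and total RNA in the molecule field. The samples were whole tissue, so fewer cells of a type and less RNA per cell cannot be told apart.

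In rodents the pituitary releases growth hormone in pulses in males and more evenly in females, and the liver reads this pattern through the growth hormone receptor and the transcription factor STAT5B. Many liver genes for cytochrome P450 enzymes, sulfotransferases, steroid dehydrogenases, organic anion carriers and urinary proteins are known to follow it, some higher in males and some higher in females. The mouse liver is therefore the tissue in which sex differences outside the sex chromosomes are best known.

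Intensities are given per RNA sample, in order of title number, on the scale on which each array has a trimmed mean of 500. A log2 difference is male minus female on the scale log2(intensity + 48.1), with the standard error (SE) of the fit, and it understates the ratio of intensities in dim genes. Array medians lay between 167.2 and 194.1, and precision is limited by the small number of arrays. The 14 tested markers of hepatocytes summed to 188929 to 215982 in the 6 samples, and Tdo2, a tryptophan-degrading enzyme of hepatocytes, lay between 9250 and 11178. All liver samples thus carried the transcripts of the labelled tissue. Markers of bile duct cells were dim, and none of the 7 on the array was bright enough to be tested.

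The title numbers were taken as 3 pairs. Samples of numbers 1 and 3 deviated together from the means of their sex (correlations 0.536 and 0.482). For number 2 the correlation was 0.139, below the 0.287 of male sample 2 with female sample 3, so number 2 was not shown to be a pair in liver. Numbers 1, 2 and 3 gave 0.591, 0.426 and 0.627 in kidney and 0.391, 0.102 and 0.328 in hypothalamus. With the title number as a block, limma called 3 of 8302 autosomal genes at an adjusted p under 0.05 (0.0361%), through 3 of the 12272 autosomal probe sets (0.0244%). Of these 2 were higher in male liver (0.0241%) and 1 in female liver (0.012%). At an unadjusted p under 0.05 there were 358 genes (4.31%), 156 higher in male (1.88%) and 202 higher in female liver (2.43%). In 268 genes (3.23%) the 3 male values lay above the 3 female values, and in 265 genes (3.19%) the reverse held.

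Cyp4a12a, a cytochrome P450 on chromosome 4 that hydroxylates fatty acids, read 2623, 1269 and 3758 in male liver and 121, 71.5 and 170 in female liver. The groups were far apart, and every male value lay above every female value. Its log2 difference was 3.87 ± 0.15 (SE, limma adjusted p = 0.00034), with differences of 3.98, 3.51 and 4.13 in pairs 1, 2 and 3. Sample 2 was the lowest of the 3 in both sexes.

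Keg1, a glycine N-acyltransferase-like gene on chromosome 19, read 4569, 2547 and 3126 in male liver and 1596, 875 and 942 in female liver. Sample 1 was the highest in both sexes, and the groups did not overlap. The 3 pairs gave log2 differences of 1.49, 1.49 and 1.68, and the fit gave 1.55 ± 0.12 (SE, adjusted p = 0.00812).

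Cyp2b13, a cytochrome P450 on chromosome 7 known as female-predominant, was the only autosomal gene called higher in female liver. It read 2692, 4423 and 4495 in female liver against 761, 1483 and 1256 in male liver. Every female value lay above every male value, and sample 1 was the lowest in both sexes. The log2 difference was -1.70 ± 0.12 (SE, adjusted p = 0.00656), with -1.76, -1.53 and -1.80 in the pairs. Without the block, Cyp4a12a passed (adjusted p = 0.027), while Keg1 (0.444) and Cyp2b13 (0.356) did not.

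The promoters of the last pair of genes, and of the female-high carrier gene Slc22a26 described further on, are shown because, of the 24 genes with the largest sex differences, these 3 had a promoter entry with a match to either of 2 motifs whose factors act in liver. They are RefSeq sequences of build GRCm38.p6, from 250 bases before to 50 bases after the annotated start. Capitals mark matches to TTCNNNGAA, the form bound by STAT factors, in Keg1 and Slc22a26, and to TTGCNNAA, a form bound by C/EBP factors, in Cyp2b13. Keg1 lies at chr19:12695540-12695839 (plus strand), Cyp2b13 at chr7:26061245-26061544 (plus strand) and Slc22a26 at chr19:7802618-7802917 (minus strand).
Keg1: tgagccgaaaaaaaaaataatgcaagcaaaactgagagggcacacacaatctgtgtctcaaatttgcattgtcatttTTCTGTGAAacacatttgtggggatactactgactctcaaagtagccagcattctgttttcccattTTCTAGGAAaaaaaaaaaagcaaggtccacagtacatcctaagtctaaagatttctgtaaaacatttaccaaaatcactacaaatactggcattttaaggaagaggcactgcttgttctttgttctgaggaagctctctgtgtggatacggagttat
Cyp2b13: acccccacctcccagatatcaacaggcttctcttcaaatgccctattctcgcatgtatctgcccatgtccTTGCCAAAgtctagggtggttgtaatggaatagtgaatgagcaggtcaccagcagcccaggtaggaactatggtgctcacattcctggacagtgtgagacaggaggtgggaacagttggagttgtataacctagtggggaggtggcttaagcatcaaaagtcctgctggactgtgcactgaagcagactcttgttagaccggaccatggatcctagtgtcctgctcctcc
Slc22a26: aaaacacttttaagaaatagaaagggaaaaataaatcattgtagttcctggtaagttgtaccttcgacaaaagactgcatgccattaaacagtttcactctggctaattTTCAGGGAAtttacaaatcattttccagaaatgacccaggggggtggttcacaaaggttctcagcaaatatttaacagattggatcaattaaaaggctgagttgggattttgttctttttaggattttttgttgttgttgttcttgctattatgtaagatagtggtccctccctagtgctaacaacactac
Both strands were searched, and the marked matches overlapped no other match. The motifs searched were these, TCACNCCAC, a form bound by the sterol-responsive SREBP factors, and the interferon-stimulated response element (ISRE), written as GAAA, any 2 bases and GAAA, which also matched in Slc22a26. Keg1 had matches to TTCNNNGAA that began 173 and 107 bases before the start, and Slc22a26 had 1 that began 141 bases before it. TTCNNNGAA was found in 2 of the 18 genes with a promoter entry (11.1%) among the 24 genes named next. It was found in 9.55% of all genes with an entry, and in 8.3% of all 32851 promoters. TTGCNNAA was found in 1 of those 18 (5.56%), in 12.2% of all genes with an entry and in 10.8% of all promoters. A match is a description of the letters and not a binding site.

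**Figure D1:**
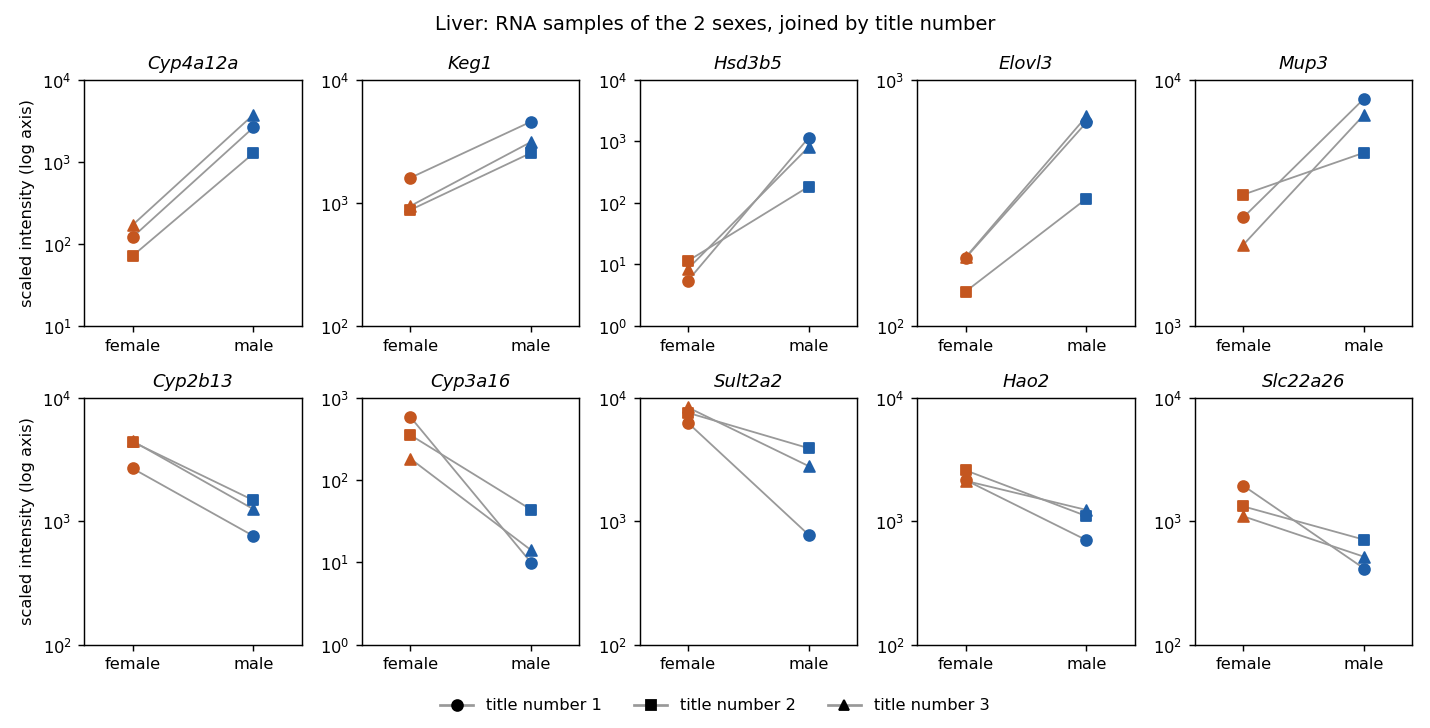
Scaled intensity (log axis) of 10 liver genes in the 6 RNA samples, each point 1 sample, the mean of 2 arrays, with lines joining the female and male samples of the same title number. The upper 5 genes were higher in all 3 male samples and the lower 5 in all 3 female samples, and in Hsd3b5 and Mup3 the line of number 2 is the flattest.

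To see which genes stood behind these 3, the 12 largest differences in each direction were taken among genes whose groups did not overlap and whose 3 pairs had 1 sign. They were chosen by these values, so the differences are a description. All 24 kept their direction on the first and on the second array of each RNA sample. Of the 21 that were not called, the lowest limma adjusted p was 0.0531 (Elovl3), just outside the threshold. The called gene nearest to the threshold was Keg1, at 0.00812. The probe sets of Mup3, Stx1a, Zdhhc6, Acot3 and Slc22a27, and those of Fmo5 and H2-Ab1 named further on, are of a design that can read related genes. Their values may thus not be of 1 gene alone.

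Besides Cyp4a12a the male-high genes held Hsd3b5, a 3-ketosteroid reductase of male liver. It read 1148, 184 and 811 in male liver and 5.45, 11.4 and 8.5 in female liver. Male sample 2 was far below the other male samples but still above all female ones. The log2 difference was 3.45 ± 0.43 (SE, adjusted p = 0.0959), with 4.48, 1.94 and 3.93 in the pairs. The female values lie below the pseudocount, so the size depends on it, from 1.99 at 4 times to 4.81 at 0.25 times the pseudocount, and the order of Hsd3b5 and Cyp4a12a is not fixed.

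Elovl3, an elongase of very long fatty acids, read 671, 329 and 710 in male against 189, 138 and 190 in female liver (1.44 ± 0.16 on the log2 scale, adjusted p = 0.0531). Its groups did not overlap, and sample 2 was the lowest in both sexes. Mup3, a major urinary protein that carries volatile scent molecules, read 8381, 5057 and 7211 against 2760, 3416 and 2137 (1.27 ± 0.22, adjusted p = 0.338). Cyp2d9, a testosterone-hydroxylating P450, read 8148, 5553 and 9762 against 2350, 4170 and 4326 (1.12 ± 0.24, adjusted p = 0.524).

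In these male-high genes pair 2 tended to give the smaller difference. It was the smallest of the 3 pairs in 7 of the 12, and the median over the 12 genes was 1.52 in pair 1, 0.78 in pair 2 and 0.98 in pair 3. In Mup3 the pairs gave 1.55, 0.58 and 1.69, and in Cyp2d9 1.77, 0.41 and 1.16. Over all 8302 genes the male minus female difference was lowest in pair 2 in 3090. With pair 2 left out, 15 autosomal probe sets were called, among them those of Hsd3b5 (adjusted p = 0.000235), Elovl3, Mup3, Cyp2d9 and the female-high Slc22a27, and without pair 1 or pair 3 there were 4 each.

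Of the other male-high genes, Aox3, an aldehyde oxidase, read 3954, 1740 and 2364 against 1470, 1289 and 1329 (0.87 ± 0.19), and Hsd3b2, a steroid dehydrogenase-isomerase, 752, 297 and 510 against 221, 264 and 292 (0.81 ± 0.25). Stx1a, a membrane fusion protein, read 204, 199 and 152 against 137, 108 and 88.4 (0.62 ± 0.11). Their groups were separate, with the smallest distance in Aox3 and Hsd3b2 at number 2. The difference of Hsd3b2 was 0.42 without pair 1. Nudt7 (0.72 ± 0.13), Zdhhc6 (0.72 ± 0.15) and Clip4 (0.63 ± 0.13), which encode a peroxisomal coenzyme A hydrolase, a palmitoyltransferase and a microtubule-binding protein, had a second probe set that showed less or none of the difference, at 0.25, 0.05 and -0.01.

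Among the female-high genes was Cyp3a16, another cytochrome P450. It read 594, 357 and 184 in female liver and 9.95, 44.0 and 14.1 in male liver. The groups were far apart, although the female values spread over a wide range. The log2 difference was -2.43 ± 0.29 (SE, adjusted p = 0.0805). The male values lie below the pseudocount, and the difference was -3.40 at 0.25 times and -1.31 at 4 times the pseudocount, so its rank among the female-high genes is not fixed.

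Other female-high genes encode enzymes of conjugation. Sult2a2, a sulfotransferase of hydroxysteroids and bile acids, read 6320, 7619 and 8422 in female and 776, 3926 and 2808 in male liver (-1.83 ± 0.34, adjusted p = 0.387). Nnmt, which methylates nicotinamide, read 2578, 1143 and 1107 in female and 77.3, 1016 and 832 in male liver (-1.66 ± 0.76, adjusted p = 0.982). The difference of Nnmt was -4.43 in pair 1 and only -0.15 and -0.39 in pairs 2 and 3, so its size rests on pair 1, without which it was -0.27.

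Both organic anion carriers among the 24 genes belong to 1 gene family and had higher female values. Slc22a26 read 1951, 1324 and 1100 in female and 414, 710 and 516 in male liver (-1.33 ± 0.24, adjusted p = 0.385), and its second probe set gave -1.05 ± 0.18. Slc22a27 read 628, 347 and 607 against 157, 222 and 159 (-1.31 ± 0.24, adjusted p = 0.384). The female samples lay above all male samples in both genes.

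Hao2, a peroxisomal oxidase of hydroxy acids, read 2165, 2598 and 2135 in female and 704, 1104 and 1238 in male liver (-1.16 ± 0.16, adjusted p = 0.172). Acot3, a peroxisomal acyl-CoA thioesterase, read 1181, 2615 and 1029 against 608, 666 and 649 (-1.15 ± 0.24), with the largest difference in pair 2 (-1.90). Cyp17a1, the lyase of androgen synthesis, read 281, 265 and 125 against 123, 119 and 64.9 (-0.86 ± 0.13). Its ranges nearly touched, since both sexes were lowest in sample 3.

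Among the female-high genes were 3 that are not known for roles in drug or lipid metabolism. Nt5e, the surface enzyme that makes adenosine from AMP, read 655, 541 and 650 in female and 341, 177 and 346 in male liver (-1.05 ± 0.16, adjusted p = 0.209). P2ry6, a receptor for UDP, had -1.0 ± 0.15, and Dcbld2, a membrane protein related to neuropilins, -0.86 ± 0.13 (both with adjusted p = 0.209). None of the 3 was called.

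**Figure D2:**
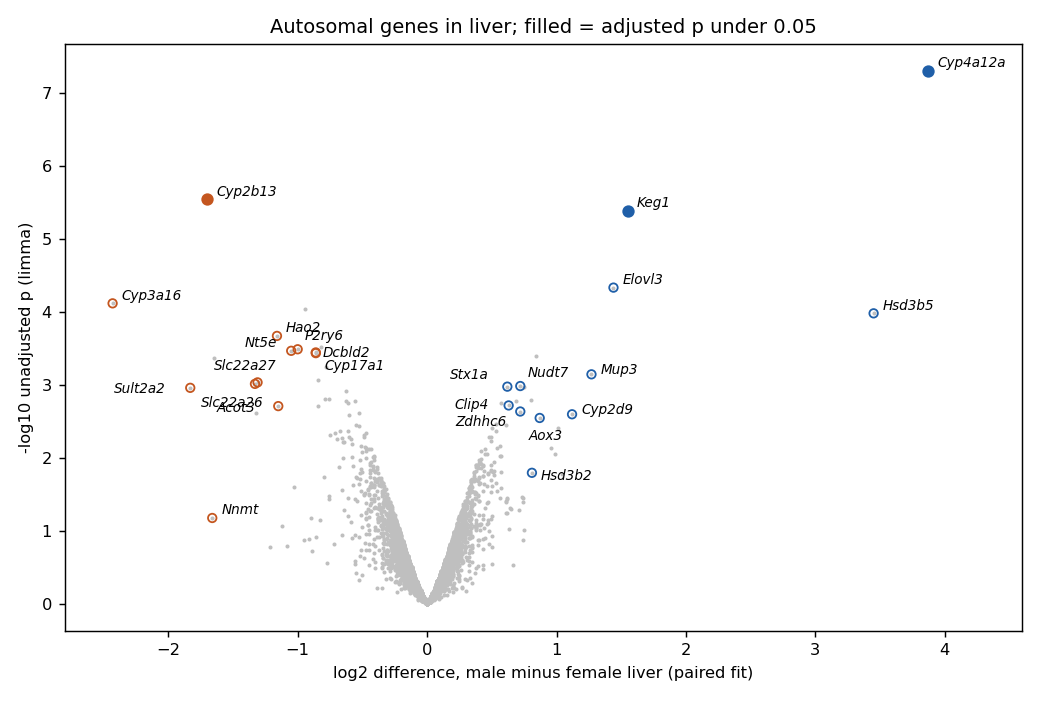
Each grey point is 1 of 8302 autosomal genes, with its log2 difference (male minus female liver, paired fit) on the x axis and -log10 of the unadjusted limma p on the y axis. Circles are the 24 genes with the largest differences and separate groups, filled for the 3 called genes Cyp4a12a, Keg1 and Cyp2b13.

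The lists of genes known from the literature as sex-biased in liver were read next. Both were drawn up with earlier results of these data in view, and they are described by counts. Of 17 tested male-predominant genes, all 17 were higher in male liver by sign, against 48.9% of all genes. Their median log2 difference was 0.52, against -0.00 over all genes. Cyp4a12a was called (1 of 17, against 0.0241% of all genes in this direction), 12 had an unadjusted p under 0.05 (against 1.88%), and the groups were separate in 8 (against 3.23%).

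Of 32 tested female-predominant genes, 27 had lower male means, against 51.1% of all genes, and 5 higher, with a median of -0.42. Cyp2b13 was called (1 of 32, against 0.012% of all genes in this direction), 15 had an unadjusted p under 0.05, all higher in female liver (against 2.43%), and the groups were separate in 12 (against 3.19%). The medians in pairs 1, 2 and 3 were 0.87, 0.41 and 0.66 for the male-predominant and -0.57, -0.50 and -0.26 for the female-predominant list. All 3 pairs thus pointed the same way for both lists. The counts of later lists at an unadjusted p under 0.05 stand beside the same shares, 1.88% in male and 2.43% in female direction.

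The cytochrome P450 families 1 to 4, which oxidise drugs, steroids and fatty acids, held 41 tested genes, of which 25 had higher male and 16 higher female means (median 0.07). In each direction 1 was called, against 0.0241% of all genes in male and 0.012% in female direction. Below the threshold was Cyp2g1, which read 317, 853 and 579 in female and 202, 422 and 302 in male liver (-0.78 ± 0.13, adjusted p = 0.281). Its groups overlapped, although the female sample was higher in all 3 pairs.

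Of 9 sulfotransferases and sulfate donors, 7 were higher in female liver by sign (median -0.22), 4 at an unadjusted p under 0.05 (against 2.43% of all genes), and 0 were called by limma. Besides Sult2a2 these were Sult3a1, with 1386, 2930 and 1002 in female and 205, 1374 and 356 in male liver (-1.65 ± 0.26, adjusted p = 0.222), Papss2, which makes the sulfate donor (-0.33 ± 0.13), and Sult1a1, a phenol sulfotransferase (-0.28 ± 0.11). In Sult3a1 the groups overlapped, since both sexes were highest in sample 2.

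The 4 flavin monooxygenases, which oxidise nitrogen and sulfur in drugs, were all higher in female liver by sign, with a median of -0.23. Fmo2 read 604, 408 and 300 in female and 298, 195 and 255 in male liver (-0.75 ± 0.18, adjusted p = 0.717). The others lay between -0.16 and -0.29. By limma 0 of the 4 were called and 1 had an unadjusted p under 0.05.

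The glutathione S-transferases, which conjugate reactive compounds, were split, with 10 higher in male and 9 in female liver by sign and a median of 0.06. Gstp1 read 13379, 15410 and 18742 in male and 10132, 10158 and 13152 in female liver (0.50 ± 0.12, adjusted p = 0.652). Gstm2 had the opposite sign (-0.43 ± 0.11, adjusted p = 0.778). Of the 7 UDP-glucuronosyltransferases 6 had higher male means (median 0.07), with pair medians of 0.18, -0.17 and 0.36. None of either family was called by limma, and 1 glutathione S-transferase in each direction and 0 glucuronosyltransferases had an unadjusted p under 0.05.

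Among 18 steroid enzymes, 12 were higher in male liver by sign (median 0.14), and 0 were called by limma, with 3 higher in male and 2 in female liver at an unadjusted p under 0.05. Cyp7b1, which hydroxylates oxysterols and steroids, read 1515, 798 and 954 in male and 757, 699 and 693 in female liver (0.52 ± 0.17, adjusted p = 0.973). Every male value lay above every female one, by a small distance in pair 2, and the difference was 0.31 without pair 1.

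Of 27 genes of bile acid synthesis and transport, 18 were higher in male liver by sign (median 0.10), but the pair medians were 0.26, -0.15 and 0.11. By limma 0 were called, with 3 in male and 2 in female direction at an unadjusted p under 0.05. Cyp7a1, the rate-limiting enzyme of bile acid synthesis, read 1762, 2473 and 1555 in female and 926, 1138 and 1489 in male liver (-0.68 ± 0.20, adjusted p = 0.939). The groups were separate, but the pairs gave -0.89, -1.08 and only -0.06. Slco1a1, an organic anion uptake carrier, read 5041, 2248 and 2134 in male and 2144, 1508 and 1347 in female liver (0.80 ± 0.16, adjusted p = 0.452).

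The growth hormone list joins the receptor, its signalling chain and the liver transcription factors. Of its 27 tested genes 11 were higher in male and 16 in female liver by sign, with a median of -0.07, and 0 were called by limma, with 2 in each direction at an unadjusted p under 0.05. Trim24, a nuclear cofactor, read 484, 821 and 534 in female and 252, 371 and 439 in male liver (-0.71 ± 0.17, adjusted p = 0.699), with separate groups. Egfr, the growth factor receptor, read 3027, 1892 and 2683 in male and 2400, 1474 and 1405 in female liver (0.52 ± 0.15, adjusted p = 0.926), and its difference was 0.33 without pair 3.

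The repressors of this programme, Bcl6 in males and Cux2 in females, were picked after their values were seen. Bcl6 read 359, 204 and 137 in male and 174, 123 and 203 in female liver (0.32 ± 0.25, adjusted p = 0.982). Cux2 read 234, 145 and 111 in female and 117, 138 and 117 in male liver (-0.25 ± 0.18, adjusted p = 0.982). The groups overlapped in both genes, pair 3 ran the other way in each, and both differences rested on pair 1, since without it they were 0.05 for Bcl6 and 0.01 for Cux2. Nuclear receptors were close to even, with 8 of 17 higher in male liver, a median of -0.03, none called by limma and 0 with an unadjusted p under 0.05.

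By sign, 17 of 19 cholesterol synthesis genes were lower in male liver, with a median of -0.28 and pair medians of -0.42, -0.32 and -0.36. None was called by limma, and 9 had an unadjusted p under 0.05, all lower in male liver (against 2.43% of all genes). Sqle, which oxidises squalene, read 724, 1851 and 1857 in female and 378, 954 and 1160 in male liver (-0.82 ± 0.12, adjusted p = 0.205). Idi1, an isomerase of the isoprenoid steps, read 673, 1579 and 1736 against 372, 1174 and 1070 (-0.63 ± 0.13, adjusted p = 0.452).

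Msmo1, a sterol demethylation enzyme (-0.84 ± 0.17), and Hmgcs1, which makes the precursor of mevalonate (-0.53 ± 0.11), had the same sign in all 3 pairs. In these 4 genes the groups overlapped, because the samples of number 1 were lowest in both sexes, while the female sample was higher within each pair. The same 4 genes were also called between the title numbers, as described further on.

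By sign, 16 of 24 fatty acid synthesis genes were lower in male liver (median -0.17), with 0 called by limma and 2 higher and 4 lower in male liver at an unadjusted p under 0.05. Fasn, the fatty acid synthase, read 2087, 1036 and 1983 in female and 667, 970 and 1184 in male liver (-0.80 ± 0.26, adjusted p = 0.982). Acly, which makes cytosolic acetyl-CoA, had -0.54 ± 0.18, and Srebf1, the transcription factor of the pathway, -0.57 ± 0.20. In each of these the difference was small in pair 2, at -0.09, -0.12 and 0.01, and large in pair 1, without which they were -0.41, -0.32 and -0.37 and the list's median was -0.07.

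By sign, 27 of 38 fatty acid oxidation genes were higher in male liver, with a median of 0.06, but the pair medians were 0.30, -0.33 and 0.13. By limma 0 were called, with 1 higher and 2 lower in male liver at an unadjusted p under 0.05. Fgf21, a hormone of the fasted liver, read 284, 306 and 278 in male and 37.6, 294 and 114 in female liver (1.04 ± 0.33, adjusted p = 0.953). The 3 male samples were alike, while the female samples spread from the lowest value to 294, above male samples 1 and 3. Without pair 1 the difference was 0.59.

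Of 16 circadian clock genes 10 had lower male means (median -0.09), but the pair medians were 0.31, -0.68 and 0.01. By limma 0 were called, with 3 at an unadjusted p under 0.05, all lower in male liver. Per1, a repressor of the clock, read 190, 329 and 129 in female and 84.6, 135 and 58.3 in male liver (-0.94 ± 0.12, adjusted p = 0.0893), with -0.92, -1.03 and -0.88 in the pairs. Bhlhe40, another clock repressor, read 706, 950 and 442 against 304, 457 and 300 (-0.84 ± 0.15, adjusted p = 0.367). The groups overlapped in both genes, and number 2 was highest in both sexes. The hour of collection is not given in the sources used here, and its part in these values was not tested.

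**Figure D3:**
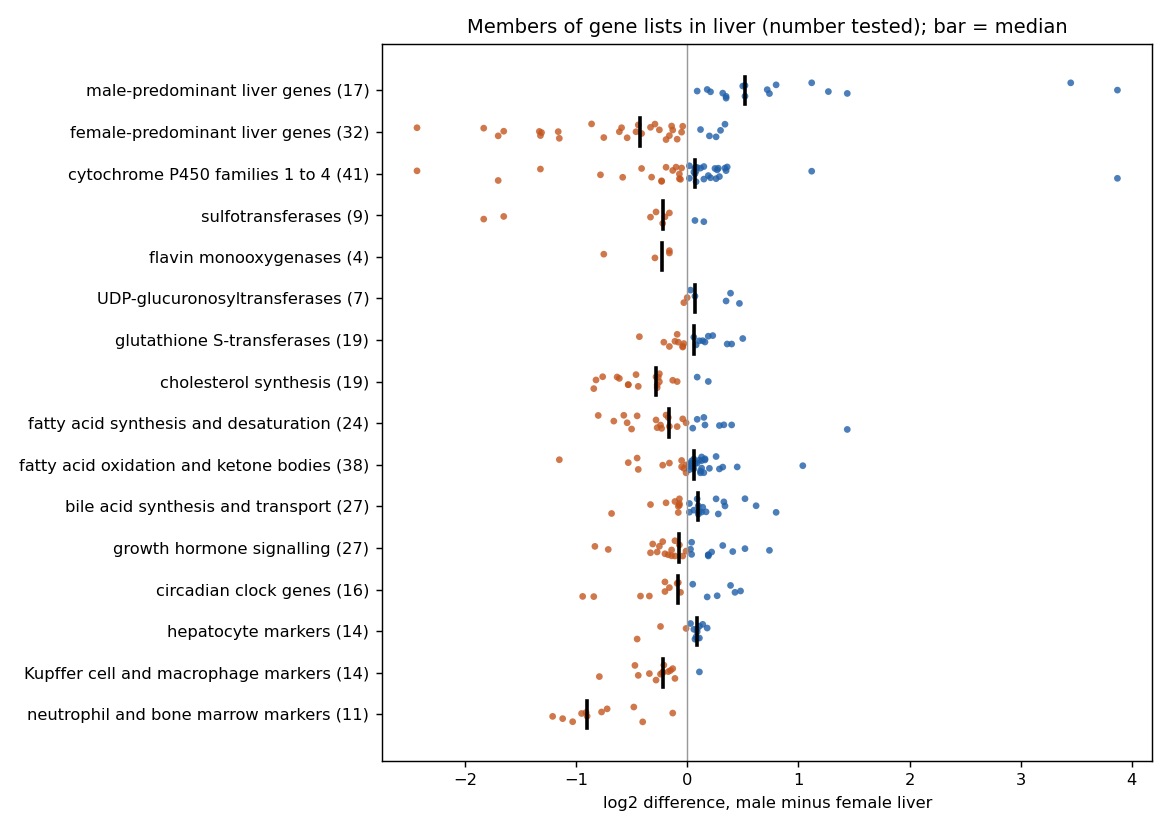
Log2 difference (male minus female liver, x axis) of the tested members of 16 gene lists, each point 1 gene, with blue to the right of 0 and orange to the left, and the black bar at the list's median. The medians of the male- and female-predominant lists lie at 0.52 and -0.42, that of cholesterol synthesis at -0.28 and that of neutrophil markers at -0.90.

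Markers of the other cells of the liver were read beside these groups. Markers of neutrophils and bone marrow, cells that can lodge in the liver's vessels, had lower male means in 11 of 11 cases, the list's median being -0.90, but the pair medians were -2.27, 0.57 and -0.65. Their summed intensity was 5113, 28090 and 18253 in male and 33937, 16273 and 27042 in female liver. Male sample 1 stood apart at the low end, and the ranges of the sexes overlapped. By limma 0 of these genes were called, and 1 had an unadjusted p under 0.05.

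S100a9, a calcium-binding protein of neutrophils, read 647 in male sample 1 and 2101 to 4383 in the other 5 samples. Without pair 1 the median of the neutrophil list was -0.01. The low neutrophil markers of male sample 1 moved with the low Nnmt of that sample, and their part in it was not tested.

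Markers of Kupffer cells and other macrophages had lower male means in 13 of 14 cases (median -0.22, and -0.04 without pair 1), with 0 called by limma and 2 at an unadjusted p under 0.05. The pair medians were -0.44, 0.11 and -0.27, so pair 2 ran the other way. Cd163, a scavenger receptor of macrophages, read 209, 234 and 260 in female and 145, 105 and 97.8 in male liver (-0.79 ± 0.16, adjusted p = 0.452). Cd5l, a protein secreted by macrophages, read 7563, 8471 and 9905 against 5125, 7424 and 6580 (-0.44 ± 0.13, adjusted p = 0.934). The groups were separate in both genes. The summed intensity of the 14 markers was 25120, 54761 and 53215 in male and 36254, 51619 and 66957 in female liver.

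Genes of the exocrine pancreas, an organ that adjoins the liver, were present in all liver samples. The 17 tested markers summed to 56440, 14559 and 73109 in male and 60320, 25546 and 25008 in female liver. Cpb1, a pancreatic carboxypeptidase, read 3768, 938 and 5068 in male and 3540, 1412 and 1262 in female liver. The list's median was 0.22, with pair medians of -0.08, -0.81 and 1.56, so the pairs differed in sign, and it was -0.50 without pair 3. By limma 0 of the 17 passed the adjusted threshold, with 1 at an unadjusted p under 0.05. The male samples of lowest and highest pancreas sum, numbers 2 and 3, were also the lowest and highest for Cyp4a12a and Elovl3. Hsd3b5 was highest in male sample 1 (1148). In females Cyp4a12a was highest (170) in sample 3, where the pancreas sum was lowest. The part of the pancreas transcripts in these values was not tested.

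Markers of sinusoid endothelial cells had a median of -0.12 (10 of 13 lower in male liver by sign), those of stellate cells and fibroblasts -0.12 (9 of 11), those of lymphocytes -0.13 (11 of 17) and those of hepatocytes 0.08 (3 of 14). Of 25 acute phase proteins 19 were lower in male liver, the list's median being -0.15, but with a pair median of -0.73 in pair 1 and 0.21 and 0.12 in the others. None of these genes was called by limma, with 0 to 1 gene per list at an unadjusted p under 0.05.

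**Figure D4:**
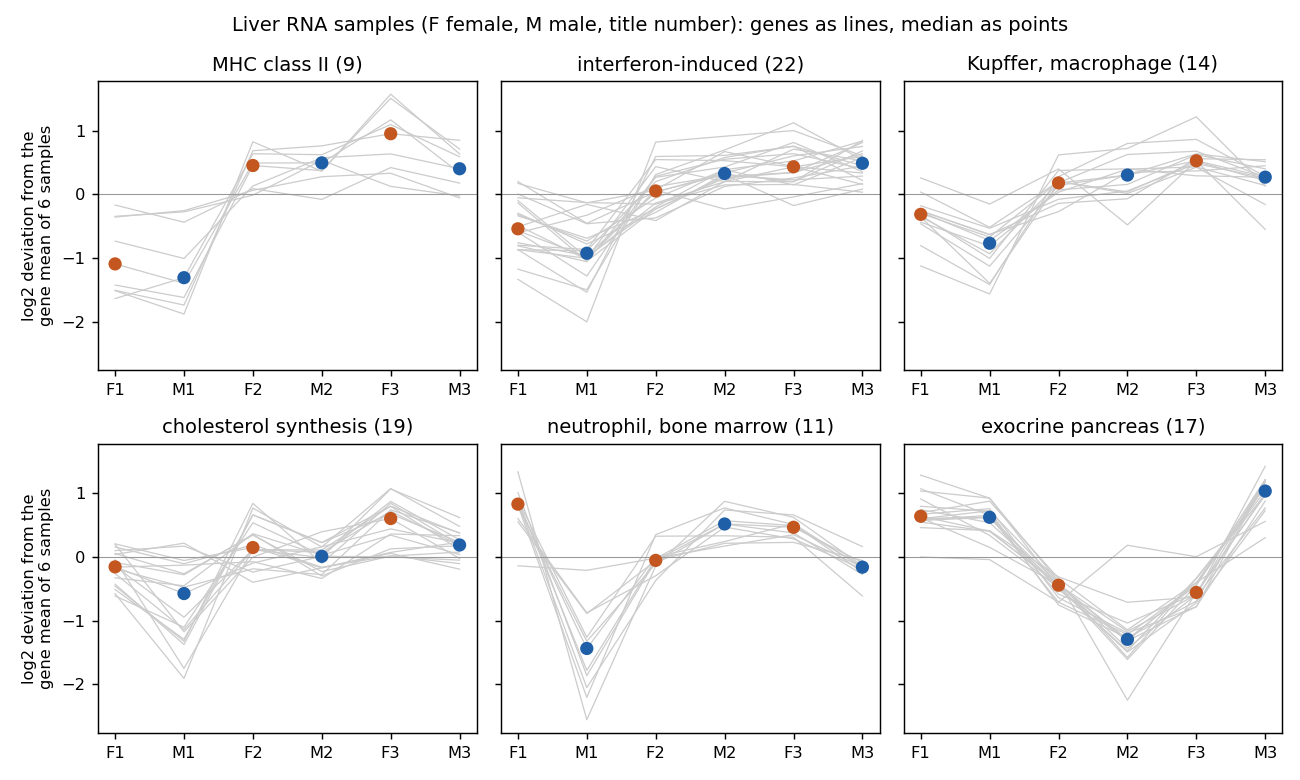
Log2 deviation of each gene from its mean over the 6 liver samples (y axis) for 6 gene lists, with genes as grey lines, list medians as points (orange female, blue male) and samples in order of title number. MHC class II, interferon-induced and macrophage genes are low in both samples of number 1, neutrophil markers are low in male sample 1 only (median -1.44), and pancreas markers are lowest in number 2 of the males (median -1.29).

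The paired fit also gives the differences between the title numbers, which the block removes from the comparison of the sexes. Between the 3 numbers, 65 of 8302 genes (0.783%) passed an adjusted p of 0.05 by limma's moderated F test, and 1412 (17.0%) an unadjusted p of 0.05. Of the 65, number 1 was the lowest in 54 (83.1%), against 30.5% of all genes, number 2 in 3 (4.62%) and number 3 in 8 (12.3%). More genes thus passed between the title numbers than between the sexes. On probe sets the count was 90, and it was 860 without number 2, 145 without number 3 and 0 by limma without number 1 (987 at an unadjusted p under 0.05).

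MHC class II genes, with which macrophages, B cells and dendritic cells present antigen, had the largest median range between the numbers of the 31 lists with at least 3 tested genes. All 9 tested genes were lowest in number 1 (against 30.5% of all genes) and 5 passed the test (against 0.783%). The median range was 2.00 on the log2 scale, against 0.28 over all genes. H2-Ab1, a class II chain, read 774, 3836 and 4649 in male and 1010, 5346 and 8950 in female liver, a range of 2.80 (adjusted p = 0.00436). Cd74, the invariant chain, read 2640, 15173 and 16135 against 3108, 14383 and 17326, a range of 2.52 (adjusted p = 0.00312). Both sexes showed the same step between number 1 and the others, and H2-DMa, which loads peptides onto class II, gave a range of 2.63 (adjusted p = 0.0115).

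Of 22 interferon-induced genes 21 were lowest in number 1 and 7 passed, against 30.5% and 0.783% of all genes. Gbp2, a guanylate-binding protein, read 373, 3121 and 2512 in male and 625, 2928 and 3322 in female liver, a range of 2.53 (adjusted p = 0.00846). Ubd, a ubiquitin-like protein raised by interferon gamma, had a range of 3.04 (adjusted p = 0.0215), and Psmb9, a subunit of the immunoproteasome, 1.81 (adjusted p = 0.0215). Both samples of number 1 were the lowest for each of these 3 genes.

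The promoter of Gbp2 is shown for this group, since it held an ISRE, in capitals, whose GAAA blocks lie on the opposite strand. It lies at chr3:142620413-142620712 (plus strand, RefSeq, GRCm38.p6), and the match begins 59 bases before the start.
Gbp2: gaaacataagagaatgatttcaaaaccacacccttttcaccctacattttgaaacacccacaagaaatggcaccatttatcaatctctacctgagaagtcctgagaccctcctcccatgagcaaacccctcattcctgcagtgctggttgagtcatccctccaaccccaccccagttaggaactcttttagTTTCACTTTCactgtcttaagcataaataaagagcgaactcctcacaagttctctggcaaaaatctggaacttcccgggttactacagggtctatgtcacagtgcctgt
Of the 48 genes called between numbers that had a promoter entry, 9 held an ISRE (18.8%), against 3.44% of all promoters of this length, or 3.99% of genes with an entry. All 9 belong to gene families known for induction by interferon (Gbp2, Gbp2b, Gbp3, Gbp7, Ifit3, Igtp, Irgm1, Irgm2 and Trim34a), and they are named here for the motif and not for their values. Both strands were searched, and the match in Gbp2 overlapped no match to the other motifs.

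The largest range of all belonged to a liver enzyme. Cyp2c37, a P450 that oxidises arachidonic acid, read 331, 4727 and 5250 in male and 390, 6472 and 4867 in female liver, a range of 3.78 (adjusted p = 0.00111). BC023105, annotated as a pseudogene, had a range of 3.48 (adjusted p = 0.00111), with 528 and 552 in number 1 and 5122 to 6954 in the others. Neither differed between the sexes at an adjusted p under 0.05 (0.982 for both).

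Lymphocyte and macrophage markers were also low in number 1, and 3 of 17 and 1 of 14 passed between the numbers by limma (against 0.783% of all genes). Of 11 neutrophil markers 0 passed (0 at an unadjusted p under 0.05). Their mean over the 2 sexes was also lowest in number 1 in all 11, through male sample 1 (median deviation -1.44, against 0.83 in female sample 1). Ighm, the heavy chain of IgM of B cells, had a range of 2.86 (adjusted p = 0.0127), with 253 and 446 in number 1 and 1390 to 3022 in the others. Marco, a scavenger receptor of macrophages, had a range of 2.02 (adjusted p = 0.0338), and Cd3d, a T cell receptor chain, 1.96 (adjusted p = 0.0265). Number 1 was the lowest for 17 of 17 lymphocyte and 13 of 14 macrophage markers, against 30.5% of all genes.

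In cholesterol synthesis 14 of 19 genes were lowest in number 1, against 30.5% of all genes. Of the 19, 5 passed between numbers, against 0.783% of all genes. Among the 5 were Msmo1 with a range of 2.02, Hmgcs1 with 1.43, Sqle with 1.41 and Idi1 with 1.36 (adjusted p from 0.0224 to 0.0257). Hamp2, a relative of the iron hormone hepcidin chosen after its values were seen, went the other way. It read 6026, 2286 and 1949 in male and 10392, 3238 and 2873 in female liver, with number 1 the highest in both sexes (range 1.72, adjusted p = 0.0127).

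The sex differences of liver were then set against those of the same genes in kidney and hypothalamus, each with 3 RNA samples per sex, in a joint fit of 18 RNA samples. The difference in sex effect between liver and kidney passed for 68 of 14857 autosomal probe sets (0.458%), and between liver and hypothalamus for 5 (0.0337%). The liver and kidney count was 15, 55 and 6 without numbers 1, 2 and 3, and the liver and hypothalamus count 3, 1 and 0 (503 at an unadjusted p under 0.05). Within kidney 128 of 12299 passed (1.04%), and within hypothalamus 2 of 12243 (0.0163%). For hypothalamus the description names total RNA and not polyA-selected RNA, so the kind of RNA and the tissue cannot be told apart there.

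Of the 24 genes with the largest liver differences, 7 passed against kidney. These genes were chosen for their liver difference, so the count is a description, and only Keg1, Nt5e and Slc22a26 of the 7 were bright enough to be tested in kidney itself. Keg1 was bright in the kidneys of both sexes, with 11729 ± 1829 (SD, n = 3) for males and 10580 ± 1264 for females, and its sex effect exceeded that of kidney by 1.41 ± 0.20 (adjusted p = 0.00912, a call kept in 9 of 13 alternatives).

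The other 4 were too dim in kidney for a sex effect to be read there, so the difference between the tissues restates the liver difference by which they were chosen. Hsd3b5 had 11.2 ± 2.64 (SD) in male and 14.5 ± 0.5 in female kidney. Cyp3a16 had 6.73 ± 4.61 and 5.48 ± 1.92, Cyp2b13 82.3 ± 32.8 and 46.4 ± 4.66, and Elovl3 98.3 ± 23.1 and 112 ± 36.4.

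Nt5e and Slc22a26 had opposite signs in the 2 tissues. Nt5e was higher in male kidney, at 790 ± 285 against 384 ± 203 (kidney log2 difference 0.97 ± 0.15, adjusted p = 0.0386), and higher in female liver, a difference between tissues of -2.02 ± 0.23 (adjusted p = 0.00322, kept in 9 of 13 alternatives). Slc22a26 had 0.56 ± 0.14 in kidney (adjusted p = 0.163), a difference of -1.89 ± 0.29 (adjusted p = 0.0163, kept in 9 of 13). Its relative Slc22a27 was lower in male kidney too (-1.17 ± 0.19, adjusted p = 0.0401), and the tissues were not shown to differ (-0.15 ± 0.35, adjusted p = 0.941).

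Cyp4a12a was higher in male kidney as well, at 3326 ± 1460 against 641 ± 331 (2.34 ± 0.39, adjusted p = 0.045). No difference in its sex effect between the tissues was shown (1.54 ± 0.47, adjusted p = 0.261). Cyp2d9 was called in kidney (2.02 ± 0.17, adjusted p = 0.0028) and not in liver, with a difference of -0.90 ± 0.35 (adjusted p = 0.418).

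Among the genes of the lists, Cyp7b1 had 2946 ± 1274 in male and 114 ± 21.5 in female kidney, where it was called (4.10 ± 0.28, adjusted p = 0.00118), and its liver effect was smaller by 3.57 (-3.57 ± 0.36, adjusted p = 0.00122). Fmo5 was called in kidney (1.75 ± 0.28, adjusted p = 0.0401) and had -0.16 ± 0.12 in liver (difference -1.91 ± 0.33, adjusted p = 0.0298). The cholesterol enzymes Sqle, Idi1 and Hmgcs1 had lower male means in liver and higher male means in kidney. The differences between tissues were -1.48 ± 0.15 (adjusted p = 0.00123), -1.27 ± 0.20 (0.0169) and -1.0 ± 0.16 (0.0202). In kidney itself none of these was called by limma, at 0.66 ± 0.12 (adjusted p = 0.0679), 0.64 ± 0.16 (0.154) and 0.47 ± 0.14 (0.217). Msmo1 had -0.03 ± 0.21 in kidney, and the tissues were not shown to differ (-0.81 ± 0.29, adjusted p = 0.359). Over 13 alternatives the call was kept in 12 for Cyp7b1, 7 for Fmo5, 10 for Sqle, 8 for Idi1 and 7 for Hmgcs1.

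The 5 probe sets that passed against hypothalamus were those of Cyp4a12a, Hsd3b5, Cyp3a16, Keg1 and Per1. The first 3 were too dim in hypothalamus to be tested there, at 4.42 to 28.1 on average, and their difference between tissues restates the liver one. Keg1 had 222 in male and 237 in female hypothalamus (liver minus hypothalamus 1.58 ± 0.20, adjusted p = 0.0453). Per1 had 905 and 878 (-0.99 ± 0.14, adjusted p = 0.0453). The call was kept in 6 of 13 alternatives for Keg1 and in 3 of 13 for Per1.

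**Figure D5:**
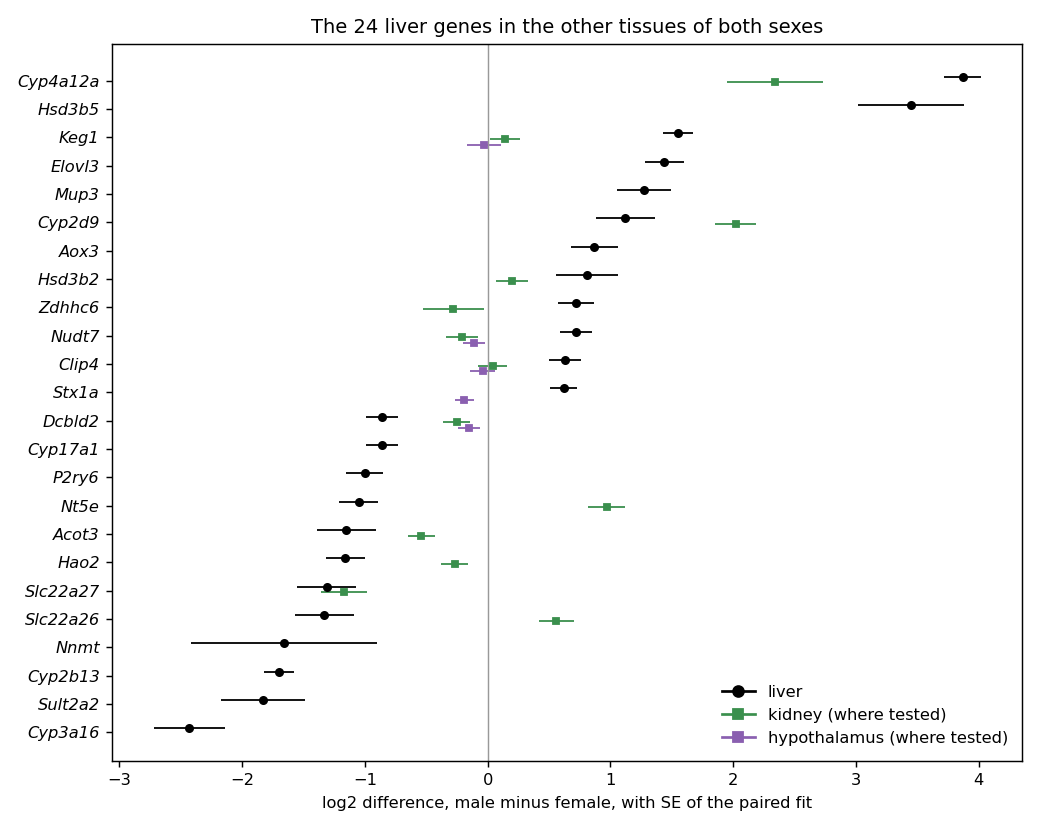
Log2 difference (male minus female, x axis) with the SE of the paired fit for the 24 liver genes with the largest differences and separate groups, in liver (black), kidney (green) and hypothalamus (violet), shown where the gene was bright enough to be tested. Cyp4a12a and Cyp2d9 lie to the right of 0 in liver and kidney, and Nt5e and Slc22a26 lie on opposite sides.

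How far the count of called liver genes depends on the fit bears on all of this. Without the replicate block 1 autosomal gene was called. The fit of all 18 samples of the 3 tissues takes 1 spread for the 3 tissues, estimated from more samples. The joint fit called 30 probe sets, 13 higher in male and 17 in female liver. Of those, 14 were of the 24 genes with the largest differences, among them Hsd3b5, Elovl3, Mup3, Cyp3a16, Sult2a2 and Hao2, and others were of Sqle, Sult3a1, Per1, Bhlhe40 and Hamp2. All 3 genes called in the paired fit of liver alone were among them.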

How the data were processed

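Affymetrix probe set signals on a linear intensity scale, as deposited by the authors, were used for 36 arrays of liver, kidney and hypothalamus, and the software that summarised the probes is not given in the sources used here. Each array was scaled to a 2% trimmed mean of 500, log2(intensity + 48.1) was taken, where 48.1 is the 20th percentile of all values, and each RNA sample was the mean of its 2 arrays (correlation 0.976 to 0.989 in liver). Probe sets above the 40th percentile of their array in at least 3 RNA samples were tested with limma 3.58.1 (R 4.3.3, lmFit and eBayes), with the title number as a block, and p-values were adjusted by Benjamini-Hochberg over all 13792 tested probe sets, sex chromosomes included. The pairing rests on the title numbers, and the deviations of same-numbered male and female liver samples correlated at 0.536, 0.139 and 0.482. For different numbers the highest was 0.287, of male sample 2 with female sample 3, which exceeds the 0.139 of number 2. Differences between tissues came from 1 fit of 18 RNA samples, with 1 spread per probe set shared by the 3 tissues.

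Gene symbols came from the platform annotation, and genes were placed on chromosomes through RefSeq by Entrez ID (20349 of 20380 probe sets with 1 symbol matched). Probe sets with several symbols or none were not named. The genes named are every called gene, the 12 largest differences in each direction with separate groups and pairs of 1 sign, up to 4 members of each list with the lowest unadjusted p, the markers Cyp4a12a, Hsd3b5 and Cyp2b13, and the 8 called genes with the largest range between title numbers. Bcl6, Cux2, Hamp2 and the other list members outside this rule were named after their values were seen. The members and lists were chosen with earlier results of these data known. Alternatives were the block, the pseudocount, normalization, filter, single arrays, an intensity trend, adjustment over autosomes and leaving out each pair.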

Additional observations from a re-analysis of the deposited data

Results flagged for a closer look

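The differences in sex effect between tissues that passed an adjusted p of 0.05 in the joint limma fit are listed here as values, male minus female in liver less the same in the other tissue. Between liver and kidney the difference was 3.53 for Hsd3b5, 1.41 for Keg1 and 1.56 for Elovl3, all with higher male values in liver. It was -2.46 for Cyp3a16, -2.18 for Cyp2b13, -1.89 for Slc22a26 and -2.02 for Nt5e, all with higher female values in liver. Among genes of the lists it was -3.57 for Cyp7b1, which was called higher in male kidney, and -1.91 for Fmo5, also called there. Among cholesterol enzymes it was -1.48 for Sqle, -1.27 for Idi1 and -1.0 for Hmgcs1, none of them called in kidney itself, and for the macrophage receptor Cd163 it was -1.14.

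Between liver and hypothalamus, where the kind of RNA may differ as well, the difference was 3.91 for Cyp4a12a, 3.46 for Hsd3b5, 1.58 for Keg1, -2.50 for Cyp3a16 and -0.99 for Per1. Hsd3b5, Elovl3, Cyp3a16, Cyp2b13 and Cd163 were too dim in kidney, and Cyp4a12a, Hsd3b5 and Cyp3a16 too dim in hypothalamus, to be tested there, so their values restate the liver difference and are no test of a tissue difference. The genes were chosen for their liver values or as list members, and p-values were adjusted over all probe sets of the joint fit.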

How the results depend on the processing

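The 3 liver genes were called under every alternative other than the fit without the replicate block, which called 1 probe set, and 18 RNA samples in 1 fit, replicate block within tissue, called 30. Leaving out 1 pair gave 4 to 15, and the other alternatives 3 or 4. For kidney, with 128 in the main setting, the count was 25 with no replicate block, 64 at 0.25 times the pseudocount, 31 with no filter, 39 on first arrays and 70 on technical replicate arrays, and 50 to 87 without 1 pair. For hypothalamus, with 2, limma gave 0 with no replicate block (269 at an unadjusted p under 0.05), at 0.25 times the pseudocount (555), with no filter (919) and on first arrays (451), 1 on technical replicate arrays, and 0 to 1 without 1 pair (589 at an unadjusted p under 0.05 without pair 1).

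The liver and kidney interaction, with 68, gave 36 with no replicate block, 145 at 4 times the pseudocount and 27 on first arrays, and 6 to 55 without 1 pair. The liver and hypothalamus interaction, with 5, gave 3 with no replicate block, with the 60th percentile filter and on first arrays, 0 at 0.25 times the pseudocount (755 at an unadjusted p under 0.05), with no filter (985) and on technical replicate arrays (833), and 0 to 3 without 1 pair. Between the title numbers, with 90 probe sets, the count was 11 with no filter, 14 on first arrays, 45 on technical replicate arrays and 0 to 860 without 1 pair. The cause of these changes was not tested. Of the single genes, Cpb1 ranged from -0.23 to 1.03 and Cux2 from -0.41 to 0.01 over the fits without 1 pair, with signs opposite to the reported ones without pair 3 for Cpb1 and without pair 1 for Cux2. Of the 31 list medians 16 had the other sign under at least 1 of 16 alternatives, all of them within 0.22 of 0, while those of the male- and female-predominant lists stayed between 0.49 and 0.69 and between -0.49 and -0.35. Precision is limited by the small number of arrays, and dim genes are understated by the pseudocount.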

Other observations

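In several other groups of liver genes none of the members was called by limma. Of 37 complement and coagulation factors 20 were higher in male liver by sign (median 0.03), with 2 higher and 1 lower at an unadjusted p under 0.05. C9, a pore-forming complement protein, read 12380, 10444 and 11734 in male and 9257, 8163 and 9337 in female liver (0.36 ± 0.11 SE, adjusted p = 0.942), and its groups were separate. Of 15 serpins, which inhibit proteases, 6 were higher in male liver by sign (median -0.04). Serpina12, a secreted serpin, read 370, 179 and 448 in male and 183, 159 and 290 in female liver (0.51 ± 0.16, adjusted p = 0.942), and its groups overlapped.

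Of 9 carboxylesterases, which cleave ester drugs and lipids, 3 were higher in male liver by sign (median -0.04). Of 24 uptake and efflux transporters 10 were (median -0.08), and single members went both ways. At an unadjusted p under 0.05 by limma 2 were higher and 4 lower in male liver, against 1.88% and 2.43% of all genes. The groups were separate in 3, all higher in female liver, against 3.19% of all genes in this direction. Among the 24 are the carriers Slc22a26 (-1.33), Slc22a27 (-1.31) and Slco1a1 (0.80). Among 17 cell cycle genes 11 were lower in male liver by sign (median -0.05). Ccnd1, the cyclin D1 of the early cell cycle, read 894, 1856 and 1067 in female and 564, 1175 and 908 in male liver (-0.50 ± 0.13, adjusted p = 0.792), higher in the female sample of all 3 pairs although the groups overlapped. The 5 tested adipocyte markers had a median of -0.00. Of the autosomal red blood cell markers 2 were tested, Klf1 and Epor, and the alpha globin gene Hba-a1 reached at most 151. The heme synthesis gene Alas2, which is X-linked and so not compared here, was the brightest marker of this list, with a mean of 723 and a highest value of 1144. A second urinary protein gene, Mup5, was tested besides Mup3.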
